A study of Mus musculus with 6 samples.

Results

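The genes of the opioid system were examined in RNA of the adult mouse spinal cord with and without Sox2 in astrocytes. The 8 genes were 4 receptors of the opioid family (Oprm1, Oprd1, Oprk1 and Oprl1), the opioid growth factor receptor Ogfr and 3 genes for peptide precursors (Penk, Pdyn and Pnoc), out of 35275 genes in the deposited tables. They were found by matching Ensembl identifiers to gene symbols, and all 8 had counts in every library. Oprm1 was chosen by its own RNA level, for a large difference between the same 6 libraries, so its values below are a description without a test and lend no support to any other result. The remaining 7 genes were taken for their membership of the opioid system, but with earlier results of these data known. The same holds for the marker and pathway lists below.

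Opioid peptides are cut from larger precursor proteins and act on receptors that couple to inhibitory G proteins. In the dorsal horn of the spinal cord, which relays pain, itch and temperature, activation of these receptors lowers transmitter release from sensory fibers and opens potassium channels in dorsal horn neurons. Penk encodes the enkephalins and Pdyn the dynorphins, and both are made by dorsal horn interneurons. Oprm1, Oprd1 and Oprk1 encode the mu, delta and kappa receptors, and Oprl1 encodes the receptor for nociceptin, the peptide cut from the Pnoc precursor. Ogfr also binds enkephalin but has no kinship to the other 4 receptors.

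The RNA was poly(A)-selected from whole cord of 3 Sox2 cKO mice (mGfap-Cre:Sox2fl/fl) and 3 control mice (Ctrl) of the C57BL/6 strain. In Sox2 cKO, Cre recombinase expressed from a mouse Gfap transgene removes both floxed Sox2 alleles in astrocytes. The labels give the genotype of the controls as mGfap-Cre:Sox2+/+, the design text lets them carry either Cre or the floxed allele, and the methods name floxed littermates, so what the groups share besides background is not certain. The age is 90 days in the sample labels and 80 days in the protocol. The methods list 2 females and 1 male in each group, and sex was not a covariate in the fits. The columns of the tables carry numbers only. Libraries 2, 4 and 6 are Ctrl and libraries 1, 3 and 5 are Sox2 cKO, and each is called by its number because the replicate it belongs to could not be read from the columns. Whole cord contains every cell type of the tissue, so fewer cells of a type and less RNA per cell cannot be told apart.

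The libraries held between 21507911 and 28392184 counts. Values are counts scaled to library size with the trimmed mean of M values (CPM), or FPKM where genes are compared with each other. The test was edgeR's quasi-likelihood test, and a gene was called at a Benjamini-Hochberg adjusted p below 0.05 over the 16137 genes tested. Sox2 itself fell from 21.4 ± 7.45 CPM in Ctrl to 2.95 ± 0.236 CPM in Sox2 cKO (SD, n = 3 each, log2 fold change -2.86, edgeR adjusted p = 0.00096), without overlap between groups. The libraries of a group also differed from each other. Ctrl library 4, and to a lesser extent Sox2 cKO library 5, held RNA of dorsal root ganglion (DRG) neurons, the sensory neurons outside the cord. Ctrl library 6 had the lowest sum of 7 meningeal fibroblast markers, 138 CPM, against 255 to 359 CPM in the other libraries. Over all genes, Ctrl library 2 differed less from Sox2 cKO library 5 (chi-square per degree of freedom 11.6) than from Ctrl libraries 4 and 6 (26.9 and 31.6).

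The start of the gene is shown for the 2 opioid genes whose RNA the results turn on most, Oprm1 and Pdyn, as the strand-oriented 250 bases before a RefSeq transcription start on GRCm38.p6. Capitals mark ACAAAG or its reverse complement CTTTGT, the core of the sequence bound by SOX factors. The Oprm1 window is chr10:6788320-6788569 on the plus strand, and the Pdyn window is chr2:129699939-129700188 on the minus strand.
Oprm1: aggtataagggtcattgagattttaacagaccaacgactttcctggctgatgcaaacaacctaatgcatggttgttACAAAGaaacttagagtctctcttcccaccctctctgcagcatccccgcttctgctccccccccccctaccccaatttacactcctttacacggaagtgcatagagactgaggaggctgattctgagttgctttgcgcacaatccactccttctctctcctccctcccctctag
Pdyn: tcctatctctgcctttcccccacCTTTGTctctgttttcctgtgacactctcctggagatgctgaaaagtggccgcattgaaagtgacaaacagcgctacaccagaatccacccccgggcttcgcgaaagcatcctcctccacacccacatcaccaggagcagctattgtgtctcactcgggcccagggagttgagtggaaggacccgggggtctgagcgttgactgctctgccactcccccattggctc

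Each of these windows held ACAAAG once on either strand, 174 bases before the start in Oprm1 and 227 bases before it in Pdyn. RefSeq windows were matched for 5 of the 8 genes, 10 windows in all, and not for Oprk1, Penk and Pnoc. The motif was in 4 of the 10, and the windows printed are ones that hold it. Of 3 Oprm1 windows, the one printed and a start 6 bases further on, nearly the same stretch, held it and the window of the most upstream start did not. Of 2 Pdyn windows, the one of the other start did not hold it. One of 3 Oprl1 windows held the motif, and those of Oprd1 and Ogfr did not. Among all 32817 windows of this length, 16.5% held ACAAAG on either strand. TGACG, the core of the element bound by CREB, was in 0 of the 10 windows on either strand and in 17.7% of all windows. A match of 6 letters is a description of the window, and no binding was measured here.

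The RNA of the mu receptor gene Oprm1 (ENSMUSG00000000766, chromosome 10, 6758506 to 7038198, plus strand, mm10) was 6.01, 13.5 and 8.98 CPM in Ctrl libraries 2, 4 and 6, from 134, 324 and 186 counts. It was 1.89, 3.58 and 4.46 CPM in Sox2 cKO libraries 1, 3 and 5, from 43, 105 and 118 counts. The groups did not overlap, although the lowest Ctrl value and the highest Sox2 cKO value lay close together compared with the spread inside each group. The mean was 9.49 ± 3.75 CPM in Ctrl and 3.31 ± 1.31 CPM in Sox2 cKO (SD, n = 3 each), and the fitted log2 fold change was -1.51 (SE 0.33), a level 0.351 times that of Ctrl. Within a group the highest library had 2.24 times the lowest in Ctrl and 2.36 times in Sox2 cKO, the widest spread among the 8 genes in either group.

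**Figure D1:**
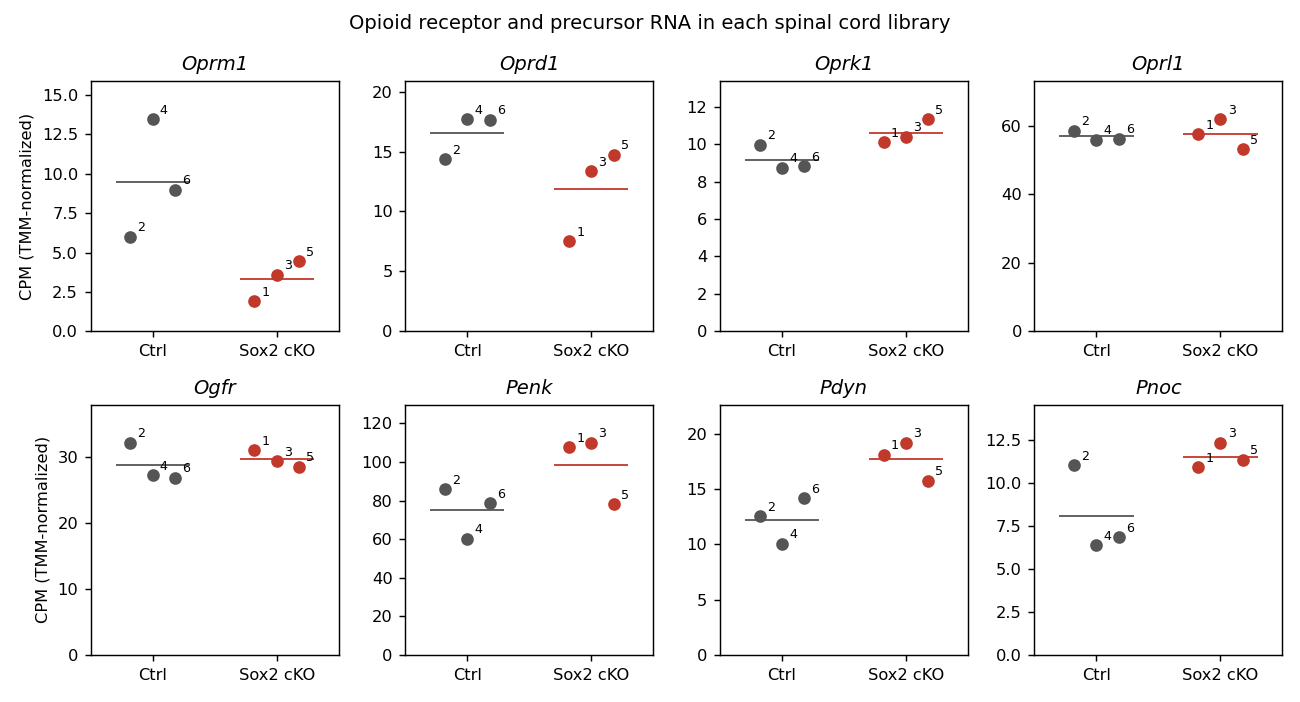
RNA of the 8 opioid genes in each spinal cord library, in CPM on a linear axis that starts at 0 in every panel. Points are libraries with their numbers, Ctrl in gray and Sox2 cKO in red, and lines are group means. Oprm1 spans 6.01 to 13.5 CPM in Ctrl and 1.89 to 4.46 CPM in Sox2 cKO.

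Sensory neurons of the DRG also express Oprm1, and the library with the most Oprm1 RNA was the one with the most DRG marker RNA. Scn10a, the sodium channel of nociceptors, had 1, 95 and 2 counts in Ctrl libraries 2, 4 and 6, and 1, 4 and 44 counts in Sox2 cKO libraries 1, 3 and 5. Mrgprd, a receptor of nonpeptidergic nociceptors, had 0, 18 and 0 counts in those Ctrl libraries and 1, 0 and 3 counts in the Sox2 cKO libraries. The summed level of the 7 DRG markers was 14.4 CPM in Ctrl library 4, 8.27 CPM in Sox2 cKO library 5 and between 3.19 and 4.35 CPM in the other 4 libraries. Of the 7 markers, 3 passed the filter and 0 were called by edgeR or by DESeq2, or had an unadjusted p below 0.05 with either. The log2 fold change of Oprm1 was -1.17 without Ctrl library 4 and -1.43 without both Ctrl library 4 and Sox2 cKO library 5, values that come from the libraries on which Oprm1 was chosen. How much of the Oprm1 RNA came from DRG fibers or cell bodies was not tested.

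Oprm1 spans 279693 bases and has 31 annotated transcripts with 9 start sites, and reads were counted on the gene as a whole. On the opposite strand its span overlaps that of Ipcef1 over 152403 bases, introns included. How many exon bases the genes share was not measured. The library kit kept strand but the counting setting is not stated, so reads of any shared exon bases cannot be assigned with certainty. Ipcef1 had a mean of 13.6 CPM in Ctrl and 12.8 CPM in Sox2 cKO (log2 fold change -0.08, edgeR adjusted p = 0.64). Gm10945, the other gene that overlaps Oprm1, had 0 counts in every library. The nearest tested gene to the left, Rgs17, which encodes a regulator of G protein signaling, lay 836106 bases away and fell slightly (log2 fold change -0.33, edgeR adjusted p = 0.041). To the right, Cnksr3 had a log2 fold change of -0.20 (edgeR adjusted p = 0.41).

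The delta receptor gene Oprd1 (ENSMUSG00000050511, chromosome 4, 132110726 to 132144486) was the only other opioid gene with a lower mean in Sox2 cKO, and it was not called. It had 14.4, 17.7 and 17.7 CPM in Ctrl libraries 2, 4 and 6 and 7.51, 13.4 and 14.7 CPM in Sox2 cKO libraries 1, 3 and 5. The groups overlapped, and Sox2 cKO library 1 lay well below the other 5 libraries. The log2 fold change was -0.48 (SE 0.21, 95% interval -0.95 to -0.01, edgeR adjusted p = 0.12), and without Sox2 cKO library 1 it was -0.24. DESeq2 called Oprd1 only when Ctrl library 2 or Sox2 cKO library 5 was left out.

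The kappa receptor gene Oprk1 (ENSMUSG00000025905, chromosome 1, 5588466 to 5606131) had 9.96, 8.73 and 8.83 CPM in Ctrl libraries 2, 4 and 6. In Sox2 cKO libraries 1, 3 and 5 it had 10.1, 10.4 and 11.3 CPM. The groups did not overlap, but the gap between Ctrl library 2 and Sox2 cKO library 1 was smaller than the range inside either group. The log2 fold change was 0.21 (SE 0.12, 95% interval -0.06 to 0.48), which edgeR did not call (adjusted p = 0.23).

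The nociceptin receptor gene Oprl1 (ENSMUSG00000027584, chromosome 2, 181715016 to 181720985) showed the narrowest difference. Its level was 58.6, 55.9 and 56.2 CPM in Ctrl libraries 2, 4 and 6 and 57.4, 61.9 and 53.2 CPM in Sox2 cKO libraries 1, 3 and 5. The Ctrl values lay inside the range of Sox2 cKO, and the log2 fold change was 0.02 with a 95% interval of -0.16 to 0.20 (edgeR adjusted p = 0.90). Ogfr (ENSMUSG00000049401, chromosome 2, 180589245 to 180595836) had 32.2, 27.3 and 26.9 CPM in Ctrl and 31.1, 29.4 and 28.6 CPM in Sox2 cKO, again with overlap. Its log2 fold change was 0.04 (95% interval -0.17 to 0.26, edgeR adjusted p = 0.76). The sign of both genes turned under some alternative settings, so neither had a direction.

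All 3 precursor genes had a higher mean in Sox2 cKO, and Pdyn was the one that was called. Pdyn (ENSMUSG00000027400, chromosome 2, 129686565 to 129699844, minus strand) had 12.5, 10.1 and 14.1 CPM in Ctrl libraries 2, 4 and 6 and 18.1, 19.2 and 15.8 CPM in Sox2 cKO libraries 1, 3 and 5. The groups did not overlap. The mean rose from 12.2 ± 2.06 CPM to 17.7 ± 1.75 CPM (SD, n = 3 each), a log2 fold change of 0.53 (SE 0.14, 95% interval 0.22 to 0.84, edgeR adjusted p = 0.024, DESeq2 adjusted p = 0.0077). The call was not stable. In edgeR fits without Ctrl library 4 or Sox2 cKO library 1, 26 and 8 genes were called in all. The Pdyn call was lost when Ctrl library 4, Sox2 cKO library 1 or Sox2 cKO library 3 was left out, with either tool, at log2 fold changes of 0.39 to 0.52, and when fold changes were corrected for gene length (0.42, edgeR adjusted p = 0.065).

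Penk (ENSMUSG00000045573, chromosome 4, 4133531 to 4138819, minus strand) had 85.9, 60.3 and 78.8 CPM in Ctrl libraries 2, 4 and 6. In Sox2 cKO libraries 1, 3 and 5 it had 108, 110 and 78.1 CPM. Libraries 1 and 3 lay above all Ctrl libraries and library 5 lay below Ctrl libraries 2 and 6, so the groups overlapped. The log2 fold change was 0.40 (SE 0.15, 95% interval 0.06 to 0.73), with an adjusted p of 0.080 from edgeR and 0.046 from DESeq2. Correction for gene length lowered it to 0.14 (edgeR adjusted p = 0.48), the largest shift of any opioid gene under that correction. Penk has the shortest length among the 8 genes in the deposited FPKM values, 1449 bases.

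Pnoc (ENSMUSG00000045731, chromosome 14, 65400673 to 65425472, minus strand) had 11.0, 6.40 and 6.85 CPM in Ctrl libraries 2, 4 and 6 and 10.9, 12.3 and 11.4 CPM in Sox2 cKO libraries 1, 3 and 5. Ctrl library 2 lay inside the Sox2 cKO range, and the other 2 Ctrl libraries lay well below it. The log2 fold change was 0.51 (SE 0.19, 95% interval 0.08 to 0.94, edgeR adjusted p = 0.076, DESeq2 adjusted p = 0.055). Without Ctrl library 2 it was 0.80 and Pnoc was called (edgeR adjusted p = 0.0018), and without Ctrl library 4 it was 0.37 (edgeR adjusted p = 0.24).

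**Figure D2:**
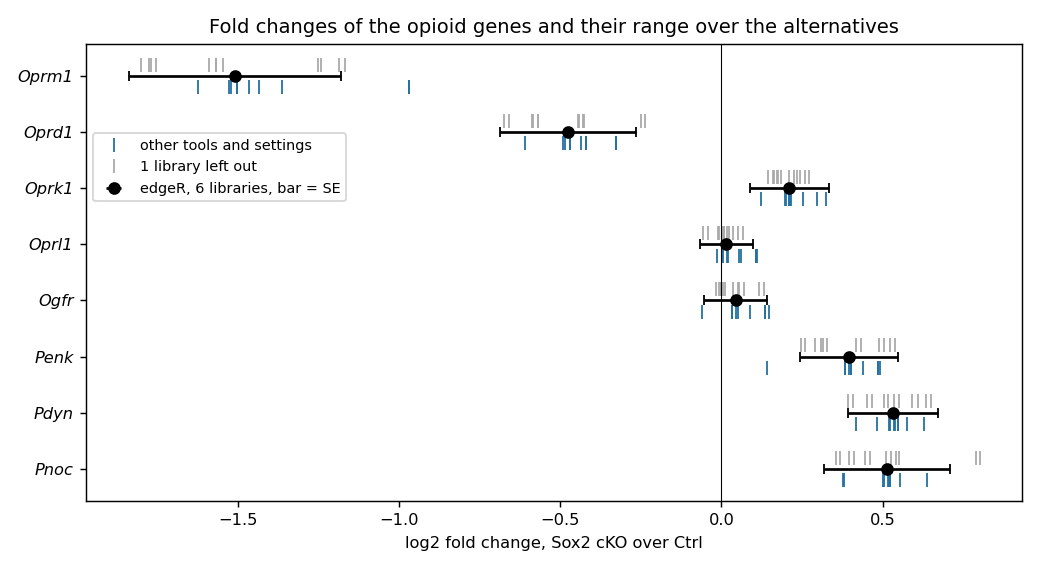
Log2 fold changes of the 8 opioid genes, Sox2 cKO over Ctrl, on a linear axis. Black points are the edgeR fit of all 6 libraries with its SE, blue marks other tools and settings, and gray marks fits with 1 library left out. Marks of Pdyn, Pnoc, Penk and Oprk1 lie above 0 and those of Oprl1 and Ogfr cross 0, and Oprm1, chosen on these libraries, is shown as a description.

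Among the 7 opioid genes other than Oprm1, edgeR called 1, Pdyn, which was higher, and 6 were not called. Over all genes tested, 24.6% were called in either direction, 12.2% as higher and 12.4% as lower in Sox2 cKO, so 1 of 7 was not above this background. The balance of directions depended on the scale, since limma on log2(FPKM + 1) called 2670 genes higher and 915 lower. At an unadjusted p below 0.05, 4 of the 7 passed in edgeR, where 39.6% of all genes did. DESeq2 called 2 of the 7, Penk and Pdyn, and 17.7% of all 24429 genes with a p-value. That total includes low-count genes that edgeR filtered out, so this share cannot be compared with the 24.6% of edgeR. The groups did not overlap in CPM for 2 of the 7, Oprk1 and Pdyn, against 44.7% of all genes tested. The log2 fold change was above 0 for 6 of the 7 and below 0 for Oprd1, with a median of 0.21 beside a median of 0.02 over all genes. With 3 mice against 3, an exact two-sided permutation test of a single gene cannot give a p below 0.1.

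Levels between genes were compared by FPKM, which divides by gene length. Penk was the most abundant opioid RNA in every library, between 40.0 and 58.9 FPKM in the 3 Ctrl and between 54.5 and 78.7 FPKM in the 3 Sox2 cKO libraries. Oprl1 followed at 17.7 ± 0.903 FPKM in Ctrl and 19.2 ± 1.66 in Sox2 cKO (SD, n = 3 each), and then Ogfr at 11.4 ± 1.47 and 12.6 ± 0.835 FPKM. In Ctrl these 3 genes did not overlap each other or any lower gene. Pdyn (4.95 ± 0.798 FPKM), Oprd1 (3.97 ± 0.374), Oprm1 (3.77 ± 1.46) and Pnoc (3.64 ± 1.25) came next in Ctrl, and neighbors in this order overlapped between libraries. Oprk1 was lowest in Ctrl, between 1.78 and 2.12 FPKM, below every library of the other genes.

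In Sox2 cKO the order of the lower genes differed. Pdyn had 7.67 ± 0.867 FPKM and Pnoc 5.54 ± 0.324 FPKM, and these did not overlap each other or the receptors. Oprd1 at 3.04 ± 0.930 FPKM and Oprk1 at 2.35 ± 0.0924 FPKM overlapped, because Oprd1 of library 1 lay below all Oprk1 values. Oprm1 was lowest at 1.41 ± 0.529 FPKM, and every Sox2 cKO library was below every Oprk1 value in that group (SD, n = 3 each).

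**Figure D3:**
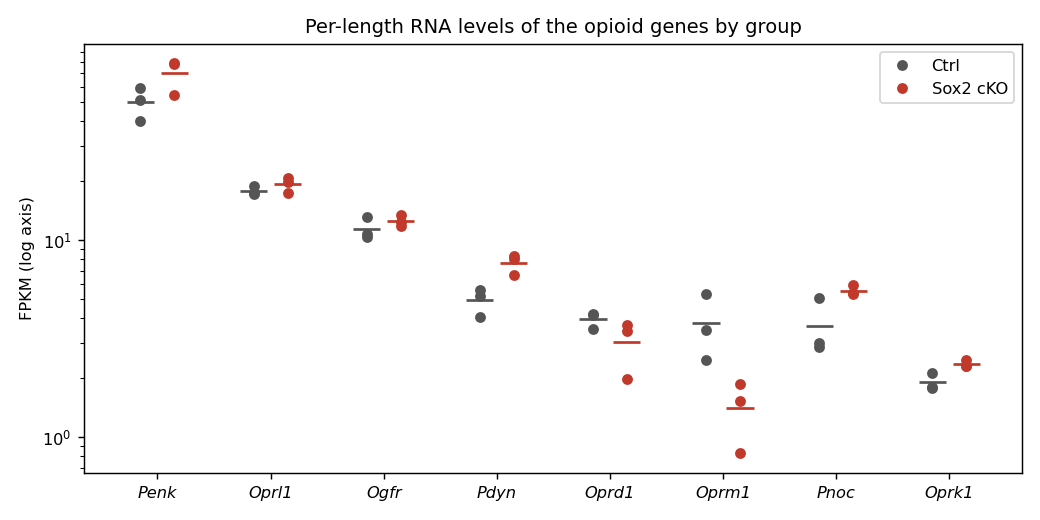
Per-length RNA levels of the 8 opioid genes in FPKM on a log axis, ordered by the Ctrl mean. Points are libraries and lines are group means, Ctrl in gray and Sox2 cKO in red. Penk lies between 40.0 and 58.9 FPKM in Ctrl. The mean of Oprm1 is 3.77 FPKM in Ctrl, above only Pnoc and Oprk1, and 1.41 FPKM in Sox2 cKO, the lowest there. These levels use the authors' gene lengths.

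The place of Oprm1 in this order depends on the length that FPKM used. The authors' length for Oprm1 was 2420 bases, whereas all its annotated exons together cover 8037 bases. With the latter, the Ctrl mean of Oprm1 was 1.14 ± 0.440 FPKM in place of 3.77 FPKM, and Oprk1, whose exons cover 9151 in place of 4675 bases, had 0.969 ± 0.0967 FPKM. The exon length moved the other 6 genes less, Oprl1 for example from 17.7 to 14.7 FPKM in Ctrl.

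As a share of the summed FPKM of the 4 related receptors, Oprm1 made up 9.18% to 18.6% in the Ctrl libraries and 3.35% to 7.34% in the Sox2 cKO libraries, a description of the same values that chose it. Oprl1 made up 64.9% ± 4.72 in Ctrl and 73.9% ± 5.50 in Sox2 cKO (SD, n = 3 each), and the shares of the libraries overlapped between groups. Oprd1 took 14.5% ± 1.23 and 11.6% ± 3.35, and Oprk1 6.95% ± 0.832 and 9.06% ± 0.730. Since shares sum to the whole, the larger shares of Oprl1 and Oprk1 include the lower level of Oprm1. Among the precursors the makeup differed little. Penk accounted for 85.3% ± 0.277 of their FPKM in Ctrl and 84.0% ± 1.84 in Sox2 cKO, Pdyn for 8.51% ± 0.910 and 9.24% ± 0.702, and Pnoc for 6.15% ± 1.17 and 6.74% ± 1.14.

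Precursor RNA was set beside other peptides and markers of dorsal horn neurons, in lists chosen with earlier results of these data known. Of 13 markers of excitatory dorsal horn neurons, 9 rose, 1 fell and 3 were not called, with a median log2 fold change of 0.81. Those that rose were mainly peptide genes, among them Grp, the gastrin-releasing peptide of itch circuits (1.09), Tac2, which encodes neurokinin B (0.95), and Sst, which encodes somatostatin (0.83). Slc17a6, the vesicular glutamate transporter that defines these neurons, was not called (-0.03). The summed level of the list was 472 to 570 CPM in Ctrl and 610 to 648 CPM in Sox2 cKO. With the length correction 3 of the 13 were called higher and 0 lower, at a median of 0.45, and without Ctrl library 4, or without Sox2 cKO library 1, edgeR called 0 of them, and 11 and 10 had an unadjusted p below 0.05. In those fits edgeR called 26 and 8 genes in all, and 29.1% and 30.0% of all genes had an unadjusted p below 0.05.

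Of 8 markers of inhibitory neurons, which include cells that express Penk or Pdyn, 2 peptide genes rose (Npy, 1.12, and Gal, 1.51), Rorb fell (-0.55) and 5 were not called. Gad1, Gad2, Slc32a1, Slc6a5 and Pax2, which mark these neurons as a class, were the 5. The summed level overlapped between groups, 873 to 987 CPM in Ctrl and 811 to 975 CPM in Sox2 cKO. Of 10 general neuron markers, Stmn2 and Uchl1 rose and 8 were not called, and the summed level also overlapped. Of 6 motor neuron markers 1 fell, Slc18a3 (-0.46), although its groups overlapped in CPM. Their summed level was 328 to 350 CPM in Ctrl and 316 to 327 CPM in Sox2 cKO, ranges that nearly touched. Beside these counts, edgeR called 24.6% of all genes tested. What part cell numbers had in the precursor values was not tested.

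**Figure D4:**
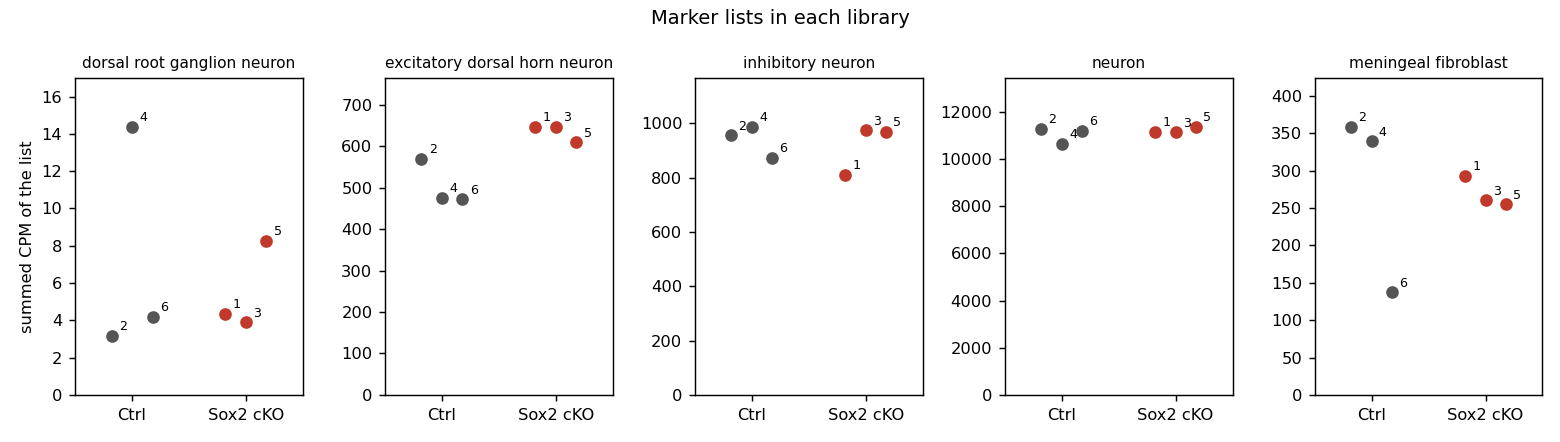
Summed CPM of 5 marker lists in each library, on axes that start at 0, with library numbers beside the points. DRG neuron markers are highest in Ctrl library 4 (14.4 CPM) and Sox2 cKO library 5 (8.27 CPM), and excitatory dorsal horn markers are higher in every Sox2 cKO library than in any Ctrl library.

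Glial and other lists were measured for the same reason. Over all genes tested, edgeR called 24.6%, or 13.1% with the length correction, and 39.6% had an unadjusted p below 0.05. DESeq2 called 17.7% of a larger total that includes low-count genes. Without Ctrl library 4, or without Sox2 cKO library 1, edgeR called 26 and 8 genes in all. Astrocyte markers fell for 4 of 10 genes (Slc1a2, Slc1a3, Aqp4 and Aldh1l1) and rose for S100b, and the summed level was 6191 to 6863 CPM in Ctrl and 5195 to 5614 CPM in Sox2 cKO. Of 6 markers of oligodendrocyte precursors, 5 fell. After the length correction 1 astrocyte marker, Aqp4, and 2 precursor markers were called, all lower. Without Ctrl library 4, or without Sox2 cKO library 1, edgeR called 0 of either list, with 6 astrocyte and 5 precursor markers at an unadjusted p below 0.05, and DESeq2 called 4 and 5 astrocyte markers and 1 and 4 precursor markers. Of 7 oligodendrocyte markers edgeR called 0 (2 at an unadjusted p below 0.05) and DESeq2 called 3, all lower. Of 7 microglia markers edgeR called 0 (4 at an unadjusted p below 0.05) and DESeq2 called 3, of which 1 was higher. Both tools called 0 of 7 meningeal fibroblast, 0 of 5 Schwann cell and 0 of 5 red blood cell markers, of which 1, 1 and 0 had an unadjusted p below 0.05 in edgeR. EdgeR called 1 of 6 for endothelium, Ly6c1, which was higher, and 1 of 4 for ependyma, Foxj1, which was lower.

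Beyond the 8 genes, 63 genes that make, cut, sense or transmit opioid signals were listed by role, and 61 passed the filter. Of these, 8 rose, 10 fell and 43 were not called, 29.5% against 24.6% of all genes, and the median log2 fold change was -0.12. In the absence of Ctrl library 4 or of Sox2 cKO library 1, edgeR called 0 of them, with 21 at an unadjusted p below 0.05 in either case, and DESeq2 called 9 and 8. These losses were shared by all genes. EdgeR called 26 in all without Ctrl library 4 (29.1% at an unadjusted p below 0.05) and 8 without Sox2 cKO library 1 (30.0%). DESeq2 called 8.22% and 9.70% of all genes, shares whose totals include low-count genes that edgeR filtered out. The balance of rises and falls in these lists also depended on the scale, since limma on log2(FPKM + 1) called 11 higher and 3 lower.

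Among 7 related receptors and ligands, 5 were tested and 0 were called by edgeR, with 4 at an unadjusted p below 0.05 (39.6% of all genes), and DESeq2 called 1, Ogfrl1, which was lower. Pomc, the precursor of beta-endorphin, was at a low level, 1.21 ± 0.297 CPM in Ctrl and 2.07 ± 0.217 CPM in Sox2 cKO (SD, n = 3 each), without overlap (log2 fold change 0.76, edgeR adjusted p = 0.054). Of 11 genes for the processing and storage of peptides, 3 rose and 1 fell. Scg5, the chaperone of the convertase PCSK2, rose by 0.61, Pcsk1n, an inhibitor of PCSK1, by 0.51, and Ctsl, a protease that also cuts precursors, by 0.48 on the log2 scale. Cpd, a carboxypeptidase, fell by 0.35. After the length correction the calls of Scg5 (0.31, edgeR adjusted p = 0.062), Ctsl (0.31, adjusted p = 0.057) and Cpd (-0.05, adjusted p = 0.63) were lost, and 1 gene of the list was called higher, Pcsk1n, and 1 lower, Scg3. The convertases themselves, Pcsk1 and Pcsk2, were not called (-0.12 and 0.06).

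Of 9 genes for peptidases, 1 fell, Nln, which encodes neurolysin (-0.34). Mme, which encodes the enkephalin-degrading neprilysin, had 13.7 CPM in Ctrl and 12.1 CPM in Sox2 cKO and was not called (log2 fold change -0.18, edgeR adjusted p = 0.37). Of 9 genes for G proteins, 4 fell and 2 rose. The inhibitory alpha subunits Gnai1 (-0.40), Gnao1 (-0.30) and Gnaz (-0.27) and the beta subunit Gnb1 (-0.53) were lower, and Gng3 (0.45) and Gnb2 (0.34) were higher. Gnb1 had 617, 780 and 838 CPM in Ctrl libraries 2, 4 and 6 and 489, 510 and 545 CPM in Sox2 cKO libraries 1, 3 and 5, without overlap.

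Among 15 regulators of receptors, 3 rose and 0 fell by edgeR, and DESeq2 called 2 as lower, the receptor kinase gene Grk2 and the beta-arrestin gene Arrb1. Rtp4, a chaperone that helps carry mu-delta receptor pairs to the cell surface, rose most. It had 2.56, 2.41 and 1.16 CPM in Ctrl libraries 2, 4 and 6 and 4.70, 4.54 and 3.78 CPM in Sox2 cKO libraries 1, 3 and 5 (log2 fold change 1.08, edgeR adjusted p = 0.021). The groups did not overlap, at a low level of RNA. Arrb2, a beta-arrestin that binds activated mu receptors, rose by 0.55, and Rgs19, a GTPase activator for inhibitory G proteins, rose by 0.55 on the log2 scale. After the length correction Rtp4 (0.84, edgeR adjusted p = 0.054) and Rgs19 (0.30, adjusted p = 0.10) were not called, and the list had 1 gene called higher, Arrb2, and 1 lower, the orphan receptor gene Gpr139. Rgs19 lies 21039 bases from Oprl1, which was not called.

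Of 12 effectors, 4 fell and 0 rose by edgeR. Kcnj6, a subunit of the potassium channel that opioid receptors open, had 6.91, 11.4 and 8.16 CPM in Ctrl libraries 2, 4 and 6 and 4.26, 5.73 and 6.04 CPM in Sox2 cKO libraries 1, 3 and 5. Its groups did not overlap, and as with Oprm1 the highest library was Ctrl library 4 and the lowest Sox2 cKO library 1 (log2 fold change -0.72, edgeR adjusted p = 0.033). The listed genes of other subunits of this channel, Kcnj3, Kcnj5 and Kcnj9, were not called (0.03, 0.16 and 0.14). The other 3 effectors that fell were adenylyl cyclases, Adcy3 (-0.44), Adcy5 (-0.37) and Adcy8 (-0.27), the enzymes that opioid receptors inhibit. The median log2 fold change of the effectors was -0.27, and the length correction turned it to 0.07. After the length correction 0 of the effectors were called by edgeR (4 at an unadjusted p below 0.05), and limma on log2(FPKM + 1) called 0 as well. Of the G protein genes, 5 were called after the correction and all were lower (Gnai1, Gnai2, Gnao1, Gnaz and Gnb1), whereas limma called 2 higher and 2 lower.

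**Figure D5:**
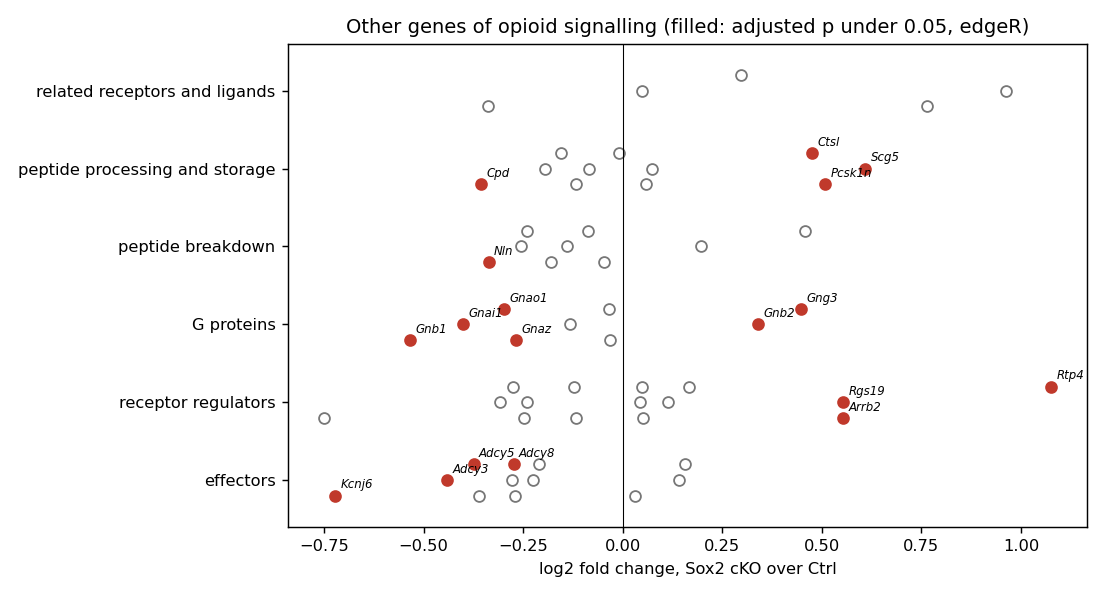
Log2 fold changes, Sox2 cKO over Ctrl, of the 61 tested genes of opioid signaling by role, on a linear axis. Filled points were called by edgeR and are named, and open points were not. Called effectors lie below 0, from -0.72 for Kcnj6 to -0.27 for Adcy8, and called receptor regulators lie above 0, up to 1.08 for Rtp4.

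The gene pattern most like that of Oprm1 across the 6 libraries, by Pearson's r of log2 CPM over 13322 genes with a mean count of at least 50, was that of Adarb1, which encodes an RNA-editing enzyme (r = 0.9997). Cep120, a centrosomal gene, Tut7, a terminal uridylyltransferase, and Usf3 were also among the closest, down to r = 0.998. Adarb1 had 315, 385 and 349 CPM in Ctrl libraries 2, 4 and 6 and 233, 276 and 291 CPM in Sox2 cKO libraries 1, 3 and 5. The order of the libraries was the same as for Oprm1, but the size was smaller, with log2 fold changes between -0.39 for Adarb1 and -0.26 for Tut7. These genes were picked from 13322 for the highest r, so the high r and the like order follow from the choice. The pattern they match includes the group difference for which Oprm1 was chosen. Among the opioid genes, r with Oprm1 was 0.91 for Oprd1, -0.88 for Penk, -0.87 for Pdyn, -0.81 for Pnoc, -0.70 for Oprk1, -0.64 for Ogfr and -0.29 for Oprl1. These coefficients describe 6 libraries that also differ by group, depth and DRG marker RNA.

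Genes beside the other opioid genes were examined for overlap. Mrgbp, whose product belongs to a histone acetyltransferase complex, ends 2941 bases before Ogfr and rose from 8.02 to 17.9 CPM (log2 fold change 1.16, edgeR adjusted p = 0.014), whereas Col9a3 on the other side of Ogfr had a log2 fold change of 0.16 and was not called. Penk overlaps the opposite-strand transcript A830012C17Rik by 499 bases, which had 0.104 CPM in Ctrl and 0.0146 CPM in Sox2 cKO. The nearest tested genes to the right of Penk and Pdyn, Impad1 and Stk35, both fell (-0.51 and -0.44). They lay 623665 and 100673 bases away, and edgeR called 24.6% of all genes tested. The tested neighbors of Oprd1 (Epb41 and Ythdf2), Oprk1 (Atp6v1h and Npbwr1) and Pnoc (Zfp395 and Elp3) were not called, nor were Gm11808 beside Penk, Sirpa beside Pdyn and Myt1 beside Oprl1.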

How the data were processed

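Single-end reads had been mapped by the authors with STAR 2.5 (genome mm10), and HTSeq 0.6.1 had counted them on genes. They deposited raw counts and FPKM values, which divide the counts by gene length and library total. Columns carry numbers only and were grouped by the mouse numbers that the study gives its 2 groups, and the group means that the study lists matched for all 1999 listed genes within 0.1%. There were 0 unused columns of per-sample values. Comparison columns of the authors were not used.

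Names and positions came from GENCODE M21 (GRCm38), which named 34490 of 35275 genes. Counts were fitted in R 4.3.3 with edgeR 4.0.16 (filterByExpr, TMM, quasi-likelihood test, no covariates, Benjamini-Hochberg over all genes). The biological coefficient of variation was 0.119. The script was checked on simulated counts. Alternatives were DESeq2 1.42.0, relative log expression and upper quartile factors, no filter, at least 10 counts in every library, limma 3.58.1 on log2(FPKM + 1 or 0.1) with and without a mean FPKM of at least 0.5, a lowess length correction (span 0.3) and leaving out each library. Leaving out Ctrl library 4 with Sox2 cKO library 5, and FPKM by exon length, were added after seeing the data.

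The members and lists were chosen with earlier results of these data known. Named were the 8 genes, Sox2, called pathway genes (at most 6 per list), Pomc, Mme, Rtp4 and Rgs19, neighbors, and the 5 genes most like Oprm1, of which 1 is not reported here. Marker genes and uncalled pathway genes were named as examples after their values were seen. RNA integrity numbers were above 6.8 per the labels, and the methods state a higher minimum. Separate mice gave the libraries, and depth was between 21507911 and 28392184 counts.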

Additional observations from a re-analysis of the deposited data

How the results depend on the processing

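No paired analysis was possible because the columns carry no replicate numbers. Over 22 alternative fits of the libraries on which Oprm1 was chosen, its log2 fold change was between -1.80 and -0.97, a description that lends it no support. The -0.97 came from limma on log2(FPKM + 1), which is another scale. The smallest fall with edgeR or DESeq2 was -1.17, in edgeR without Ctrl library 4. The number of opioid genes other than Oprm1 that were called was 1 as reported, 2 with DESeq2, 3 with edgeR without a filter, and 0 with the length correction, with limma without a filter and without Ctrl library 4 and Sox2 cKO library 5 together. It was between 0 and 4 when 1 library was left out. Pathway genes called were 18 as reported, 11 with the length correction, 0 with limma without a filter, 0 without the 2 libraries, and between 0 and 29 with 1 library left out. All genes called were 3970 as reported, 2109 with the length correction, 7 with limma without a filter, 37 without the 2 libraries, and between 8 (without Sox2 cKO library 1) and 6119 (without Ctrl library 2) with 1 library left out. The fits with fewer libraries have fewer samples, and the other causes were not tested.

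With the length correction the log2 fold change turned to -0.0128 for Oprl1 and -0.0613 for Ogfr, and with 1 library left out it ranged from -0.0581 to 0.0685 for Oprl1 and from -0.0152 to 0.131 for Ogfr. The direction of Oprd1, Oprk1, Penk, Pdyn and Pnoc did not turn in any of the fits. Pdyn was called in 13 of 22 alternatives, Penk in 6, Pnoc in 3, Oprd1 in 2, and Oprk1, Oprl1 and Ogfr in 0. On the scale of log2(FPKM + 0.1) the median of all genes shifted to 0.11. Exon length moved the FPKM of Oprm1 in Ctrl from 3.77 to 1.14. Oprm1 had 43 to 324 counts per library and an SE of 0.33, whereas Oprk1 had 183 to 305 counts and an SE of 0.12. What limits the precision for Oprm1 was not tested.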
